A study of Mus musculus with 6 samples.

Results

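Complement component genes were followed in mouse peritoneal macrophages with and without Tet2, a gene whose product oxidises methylated cytosine in DNA. The set was defined by name, with earlier results of these data known. It holds 9 genes: the C1q chains C1qa, C1qb and C1qc, the classical pathway components C1s1, C2 and C4b, and C3, Cfb and Cfp. Of these 9 genes, 8 had a probe set under their name among the 23185 named probe sets of the array. The annotation names no probe set for C3. Among the 2021 unnamed probe sets is one numbered with the gene identifier of C3, but it was left out because the annotation gives it no name. C3 is therefore not analysed here, and the alternative pathway is represented by Cfb and Cfp. The 8 probe sets were read on all 6 arrays, 3 for Tet2-/- mice and 3 for their wild-type littermates.

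Both groups were of strain C57BL/6J. The mice had received 1 mL of aged 4% Brewer's thioglycollate into the peritoneum, an irritant that draws macrophages into the cavity, and the cells were collected 4 days later. They were plated in RPMI with antibiotics and 10% FBS, received no treatment, and gave total RNA after 10 h. The labels number the samples of each genotype 4, 5 and 6 and call them biological replicates without naming separate animals, so the tests see only how far these samples differ from one another. The sources used here give neither the age of the mice nor the deleted part of Tet2 nor the purity of the plated cells.

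The title and the genotype characteristic of 4 of the 6 samples contradict each other. Groups follow the title, under which each genotype holds replicates 4, 5 and 6 once, and every direction below refers to the samples titled as Tet2 deficient. Tet2 itself does not settle the labels, since its log2 level was 4.35, 3.74 and 3.79 in wild-type and 3.80, 4.05 and 3.67 in Tet2-/- replicates 4, 5 and 6. Grouping by the characteristic changed what the data show for the alternative pathway genes, and those values are given beside the results. Array medians ran from 2.77 to 2.93 on the log2 scale. Tet2-/- replicate 6 had the highest median, the narrowest interquartile range (2.99, against 3.16 to 3.33) and the lowest mean correlation with the other arrays (0.982).

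Complement is a cascade of plasma proteins that tags microbes and dying cells. C1q, built from the A, B and C chains, binds immune complexes and apoptotic surfaces and starts the classical pathway. The protease C1s then cleaves C4 and C2, which together form the enzyme that cleaves C3. In the alternative pathway, factor B (Cfb) supplies the protease of a second such enzyme and properdin (Cfp) stabilises it. The liver makes most circulating components, whereas macrophages are a main source of C1q and myeloid cells of properdin.

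The genes lie in a few clusters of the RefSeq annotation of GRCm38.p6. C1qb, C1qc and C1qa follow one another directly on chromosome 4. Cfb and C2 are direct neighbours on chromosome 17, which also carries C4b, and C1s1 sits between C1ra and C1rb on chromosome 6. Cfp is on the X chromosome. The array files name no genome build, and the positions of the probes were not used here.

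Promoter sequences are shown for C1qb and C1qc, neighbours whose levels stayed close between the genotypes, and for Cfp, whose levels spread widely among Tet2-/- samples. RefSeq windows (GRCm38.p6) run from 250 bases before to 50 bases after the transcription start and are written 5′ to 3′ on the gene's strand, which is the minus strand for all of them. Capitals mark GAGGAA or its reverse complement, the core recognised by PU.1, the lineage factor of macrophages.

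C1qb, chr4:136886151-136886450: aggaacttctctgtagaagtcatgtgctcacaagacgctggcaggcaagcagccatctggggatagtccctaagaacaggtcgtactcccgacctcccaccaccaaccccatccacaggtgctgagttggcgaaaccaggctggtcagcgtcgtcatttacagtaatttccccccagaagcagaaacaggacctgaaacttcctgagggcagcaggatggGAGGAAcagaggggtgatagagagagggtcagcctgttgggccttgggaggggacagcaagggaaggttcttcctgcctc
C1qc, chr4:136892865-136893164: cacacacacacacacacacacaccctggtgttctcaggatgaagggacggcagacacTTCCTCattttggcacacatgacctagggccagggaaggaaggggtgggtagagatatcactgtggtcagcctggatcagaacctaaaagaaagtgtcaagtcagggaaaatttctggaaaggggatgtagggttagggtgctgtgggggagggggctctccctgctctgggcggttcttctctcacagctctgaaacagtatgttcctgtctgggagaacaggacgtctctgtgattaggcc
Cfp, chrX:20931506-20931805: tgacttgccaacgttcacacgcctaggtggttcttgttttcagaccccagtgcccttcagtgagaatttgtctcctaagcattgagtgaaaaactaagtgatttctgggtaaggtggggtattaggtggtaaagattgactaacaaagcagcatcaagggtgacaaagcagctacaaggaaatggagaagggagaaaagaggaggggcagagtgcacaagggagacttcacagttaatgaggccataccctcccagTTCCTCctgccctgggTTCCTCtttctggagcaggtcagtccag

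The PU.1 core occurred once in the C1qb window, once in the C1qc window and at 2 places in the Cfp window, both of them after the start site. Of all 32851 promoter windows of this length, 28.3% held it on either strand. CpG dinucleotides, the usual site of DNA methylation in mammals, numbered 6 in C1qb, 3 in C1qc and 2 in Cfp, against a median of 7 over all windows. Neither the interferon-gamma element GAS (TTCNNNGAA, in 8.30% of windows) nor the C/EBP motif TTGCNNAA (in 10.8%) matched in these 3 windows. Both entries for C1s1 lacked the PU.1 core and held 1 CpG, and 1 of them matched the C/EBP motif. No measurement of methylation or factor binding was analysed here. Windows for C1qa, C2, C4b and Cfb are not shown.

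The C1q chains stood at nearly the same level in both genotypes, whereas Cfb, C4b and Cfp had higher means in Tet2-/- cells without passing the test over the whole array. By limma, 0 of the 8 genes passed an adjusted p of 0.05, where 0% of the 25206 probe sets did. At an unadjusted p under 0.05, Cfb and C1s1 were higher (2 of 8, beside 1.71% of all probe sets) and 0 of 8 were lower (beside 1.90%). C1s1 passed only just, at an unadjusted limma p of 0.04996 against 0.0157 for Cfb, and missed under most other settings. Both genes had every Tet2-/- sample above every wild-type sample, which held for 3.33% of all probe sets. Of the 8 differences, 7 were positive and 1 negative, with a median of 0.22 log2 units against 0.00 over all probe sets, of which 49.2% were positive. Because the set was chosen with earlier results of these data known, these counts beside the shares describe it and do not test it. Differences are Tet2-/- minus wild type in log2 units throughout, and levels are log2 RMA values of one probe set, which are not compared between genes.

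**Figure D1:**
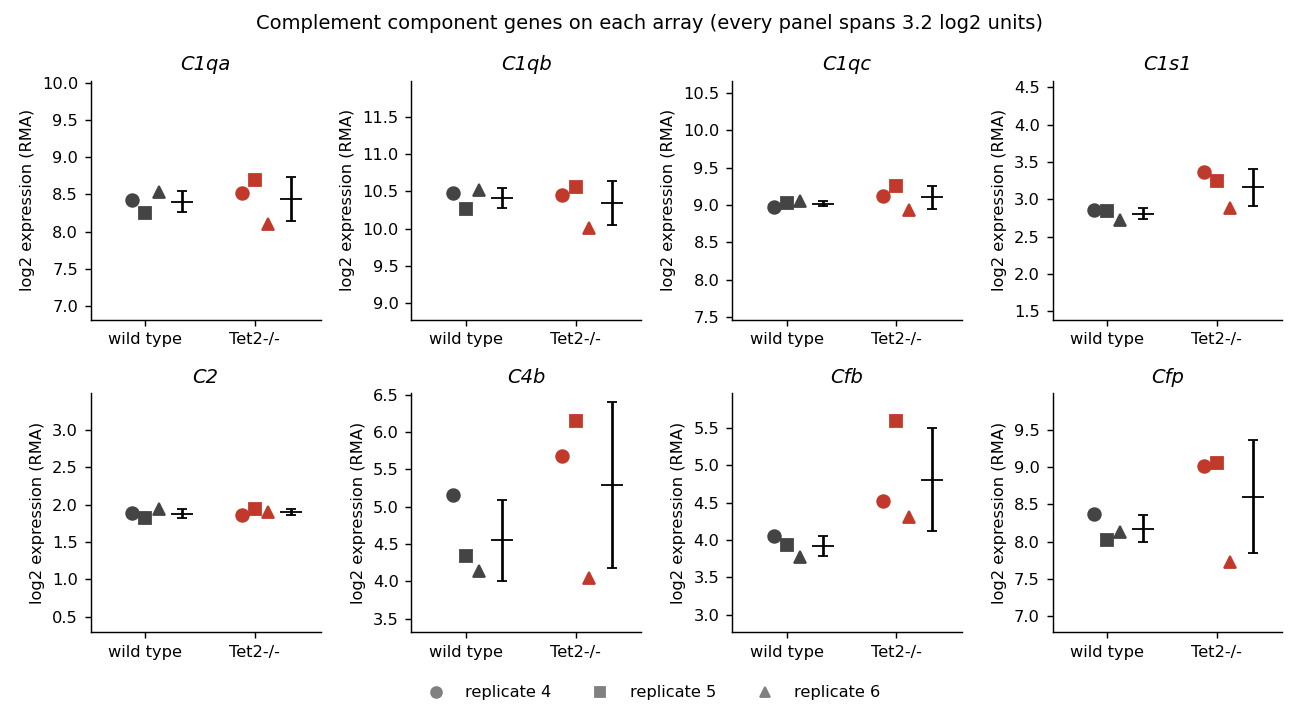
Log2 expression (RMA) of the 8 genes on each array, with wild type in grey and Tet2-/- in red, a symbol for each replicate number, and the mean ± SD (n = 3) in black beside the points. The C1q chains and C2 overlap between genotypes, while in C4b and Cfp Tet2-/- replicates 4 and 5 lie above wild type and replicate 6 below it, and in Cfb all 3 lie above it.

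C1qa, which encodes the A chain, was at 8.42, 8.25 and 8.53 in wild-type replicates 4, 5 and 6 and at 8.52, 8.69 and 8.11 in the Tet2-/- replicates. The groups overlapped fully, with Tet2-/- samples at both ends of the range. The means were 8.40 ± 0.141 and 8.44 ± 0.298 (SD, n = 3 each), which differ by 0.04 (limma adjusted p = 0.998; 95% interval -0.36 to 0.44). C1qb, the B chain gene, was at 10.47, 10.26 and 10.51 in wild-type and 10.45, 10.56 and 10.01 in Tet2-/- cells. Again Tet2-/- replicate 5 was the highest and replicate 6 the lowest of the 6 samples. The difference was -0.07 ± 0.172 (SE; adjusted p = 0.998 by limma).

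C1qc, which encodes the C chain, was at 8.98, 9.03 and 9.05 in wild-type and at 9.12, 9.25 and 8.94 in Tet2-/- cells. The wild-type samples lay close together, and the Tet2-/- samples lay on both sides of it. The genotypes differed by 0.08 (adjusted p = 0.998 by limma; 95% interval -0.22 to 0.39). The 95% interval of C1qb ran from -0.46 to 0.32. With 3 samples a group, the data are compatible with differences anywhere within these 3 intervals, in either direction.

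All 3 C1q chains were highest in Tet2-/- replicate 5 and lowest in Tet2-/- replicate 6. The mean of the 3 chains, each gene set against its own 6-array mean, was 0.00, -0.11 and 0.08 in wild-type and 0.08, 0.21 and -0.27 in Tet2-/- replicates 4, 5 and 6. The between-genotype difference of this mean was 0.02. Spread was wider among Tet2-/- samples for each chain, as it was for 63.6% of all and 69.3% of the brighter probe sets.

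Among the classical pathway components that act after C1q, C4b had the largest difference and the largest spread. C4b, one of a pair of C4 genes in mice, was at 5.16, 4.34 and 4.14 in wild-type and at 5.68, 6.15 and 4.04 in Tet2-/- cells. Tet2-/- replicates 4 and 5 exceeded all wild-type samples, and replicate 6 was the lowest of the 6. The means were 4.55 ± 0.540 and 5.29 ± 1.11 (SD, n = 3 each), which differ by 0.74 (adjusted p = 0.998 by limma; 95% interval -0.37 to 1.86). Leaving out Tet2-/- replicate 6 gave 1.37, leaving out replicate 5 gave 0.31, and grouping by the genotype characteristic gave -0.08. The near-identical C4a, at 1.31 to 1.75 over the 6 arrays, differed by 0.16, and how far the probes separate these copies could not be checked.

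C1s1, the gene of the C1s protease, was at 2.86, 2.84 and 2.72 in wild-type and at 3.36, 3.24 and 2.88 in Tet2-/- cells. All Tet2-/- samples were above all wild-type samples, though replicate 6 exceeded the highest of them only narrowly. The difference was 0.35 ± 0.156 (SE; 1.28-fold; adjusted p = 0.998 by limma), and it was -0.10 under grouping by the characteristic. These values are close to the array medians, where RMA compresses differences and the background could not be checked. C1s2, a near copy of C1s1, differed by 0.04.

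C2, the protease subunit cleaved by C1s, was flat and dim. It was at 1.89, 1.82 and 1.94 in wild-type and at 1.86, 1.94 and 1.91 in Tet2-/- cells, below every array median. The difference of 0.02 (95% confidence interval -0.26 to 0.30) therefore describes a probe set at the low end of the scale. Its direct neighbour on the chromosome is Cfb.

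Cfb, the protease component of the alternative pathway convertase, was at 4.05, 3.94 and 3.78 in wild-type and at 4.52, 5.60 and 4.31 in Tet2-/- cells. All 3 Tet2-/- samples were above the wild-type samples, and replicate 5 stood more than 1 log2 unit above the other two. The means were 3.92 ± 0.136 and 4.81 ± 0.692 (SD, n = 3 each), which differ by 0.89 ± 0.298 (SE; 1.85-fold; 95% interval 0.21 to 1.56). Over all probe sets this did not pass (adjusted p = 0.998 by limma, with 0.249 to 1.00 under the other settings). The difference was 0.49 without Tet2-/- replicate 5 and 0.15 under grouping by the characteristic.

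Cfp, which encodes properdin, was at 8.37, 8.02 and 8.13 in wild-type and at 9.02, 9.06 and 7.73 in Tet2-/- cells. Tet2-/- replicates 4 and 5 were above all wild-type samples, whereas replicate 6 was below all of them. The means were 8.17 ± 0.179 and 8.60 ± 0.757 (SD, n = 3 each), which differ by 0.43 (adjusted p = 0.998 by limma; 95% interval -0.30 to 1.16). Leaving out Tet2-/- replicate 6 gave 0.87 (adjusted p = 0.101 by limma), leaving out replicate 5 or 4 gave 0.20 or 0.22, and under grouping by the characteristic it was 0.03.

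C1q and the alternative pathway genes were then set against each other within each sample, so that a shift equal at all levels of an array cancels. An array effect that varies with level, such as the narrower range of Tet2-/- replicate 6, does not cancel. The mean of Cfb and Cfp, each relative to its 6-array mean, was -0.17, -0.40 and -0.42 in wild-type and 0.39, 0.95 and -0.36 in Tet2-/- replicates 4, 5 and 6, a difference of 0.66. Replicate 6 lay among the wild-type samples and the other Tet2-/- samples lay above them. The C1q mean minus this alternative pathway mean was 0.17, 0.29 and 0.50 in wild-type and -0.32, -0.74 and 0.09 in Tet2-/- cells. Every Tet2-/- sample was therefore lower than every wild-type sample, with replicate 6 closest to wild type. The means were 0.32 ± 0.166 and -0.32 ± 0.415 (SD, n = 3 each), a difference of -0.64. Replicate 6 was lower through its C1q mean of -0.27, the lowest of the 6 arrays, while its Cfb and Cfp mean lay among wild type. How often such a contrast separates the groups over all probe sets was not computed. No test was made of this contrast, since its genes were chosen with earlier results known. Leaving out single samples gave -0.85 to -0.43, and grouping by the characteristic gave 0.04.

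**Figure D2:**
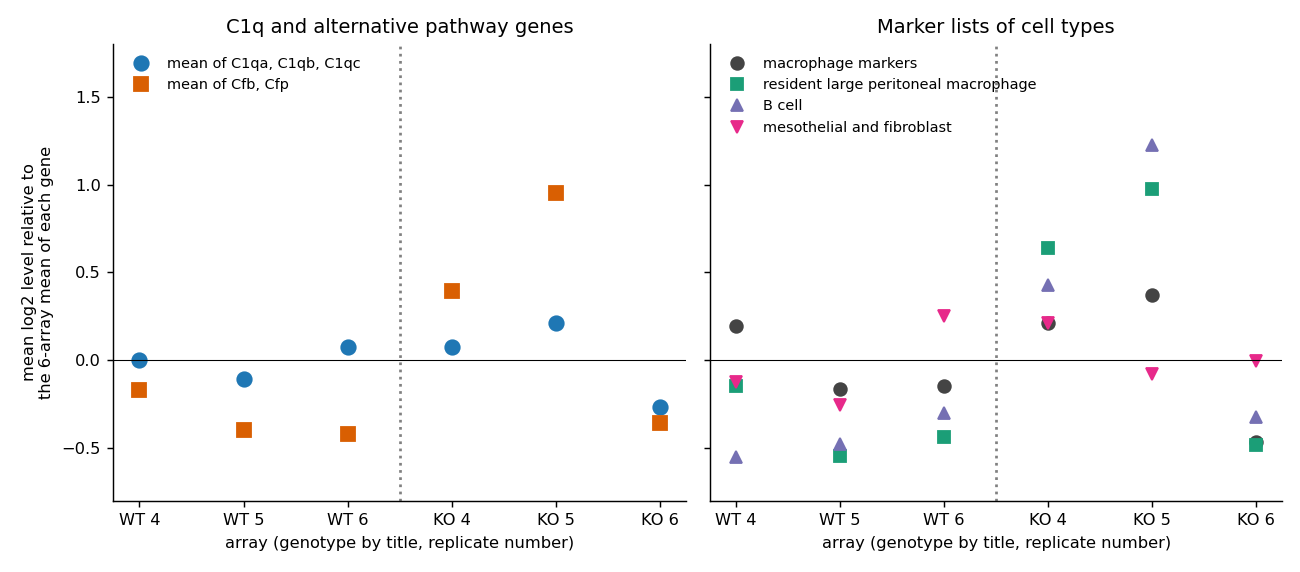
Mean log2 level relative to each gene's 6-array mean, by array, for the C1q chains and for Cfb and Cfp (left) and for 4 marker lists (right), with KO marking Tet2-/-. The C1q mean stays between -0.27 and 0.21, while the Cfb and Cfp mean reaches 0.95 in Tet2-/- replicate 5. The C1q mean and the general macrophage, resident macrophage and B-cell lists are also highest in that sample.

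The order of the Tet2-/- samples was the same for most of these genes. Replicate 6 was the lowest Tet2-/- sample for 7 of the 8 genes and replicate 5 the highest for 7 of 8, C2 being an exception to the first and C1s1 to the second. Over all probe sets, replicate 6 was lowest among the Tet2-/- samples for 32.3%, and over the brighter probe sets for 48.9%. Replicate 5 was highest among them for 24.2% of all and 31.9% of the brighter probe sets.

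Several cell type markers varied in the same order. General macrophage markers, 6 of 8 measured, averaged 9.13, 8.77 and 8.79 in wild-type and 9.15, 9.30 and 8.47 in Tet2-/- replicates 4, 5 and 6, so their groups overlapped. Of these 6, 3 had a higher and 3 a lower mean in Tet2-/- cells. The largest differences were those of Adgre1, a surface marker of mature mouse macrophages, and Csf1r, the receptor for the macrophage growth factor, at 0.37 and 0.34, while Fcgr1, an Fc receptor gene named after its value was seen, was at -0.23. Markers of the resident large peritoneal macrophage (12 of 12 measured) averaged 5.64 to 6.03 in wild-type, 6.82 and 7.16 in Tet2-/- replicates 4 and 5 and 5.70 in replicate 6. Of these 12, 11 had a higher mean in Tet2-/- cells, led by the lipoxygenase Alox15 at 2.08 and coagulation factor F5 at 1.07. Their part in the Cfb, Cfp and C4b values was not tested, and in bulk RNA fewer cells of a type and less RNA per cell cannot be told apart.

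Other lists bear on the same samples. Monocyte and small peritoneal macrophage markers (8 of 8) averaged 4.55 to 4.85 in wild-type and 5.06 to 5.95 in Tet2-/- samples, with 7 of 8 higher, Plac8 at 1.77 and the chemokine receptor Ccr2 at 1.38. For this list every Tet2-/- mean, that of replicate 6 included, was above every wild-type mean. B-cell markers (7 of 8) averaged 2.58 to 2.83 in wild-type, 3.56 and 4.36 in Tet2-/- replicates 4 and 5 and 2.81 in replicate 6, with 7 of 7 higher and the receptor chains Cd79a and Cd79b at 1.59 and 1.55. Their part was not tested either.

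The mean levels of several other marker lists overlapped between the groups, though single markers in them did not. Siglecf and Xcr1 were lower, and Mcpt4 and Tpsb2 higher, in every Tet2-/- sample than in every wild-type sample. Over all probe sets that held for 4.07% lower and 3.33% higher. Mesothelial cells and fibroblasts, which can also make C1s, C4 and factor B, had 12 of 12 markers measured, averaging 4.36 to 4.86 in wild-type and 4.53 to 4.83 in Tet2-/- samples. Their largest differences were Col3a1, a fibrillar collagen, at 0.42 and Pdgfra at 0.31. Of this list, 0 of 12 passed an unadjusted p under 0.05 by limma, beside 1.71% of all probe sets higher and 1.90% lower, a count near that background. At the same p, 6 of 12 resident macrophage, 4 of 8 monocyte and small macrophage and 3 of 7 B-cell markers were higher. Of the granulocyte and mast cell markers, 1 of 10 was lower, and the general macrophage, T and NK cell and dendritic cell lists had 0. The part of these cell types in the complement values was not tested. T and NK cell markers (8 of 8, Cd4 at 0.23 and Trac at -0.19) averaged 1.97 to 2.21 and 2.02 to 2.31. Dendritic cell markers (6 of 6, Xcr1 at -0.18 and Cd209a at 0.11) averaged 2.16 to 2.31 and 2.11 to 2.50, and granulocyte and mast cell markers (10 of 10, Siglecf at -1.21 and Tpsb2 at 0.30) averaged 2.78 to 2.95 and 2.75 to 2.92. The lowest single marker value was 1.01 on this scale, against 0.19 over all probe sets. Whether such dim values exceed background was not checked.

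The rest of the complement system, taken as 49 measured genes of 51 listed, did not lean to one side. Of these, 24 had a higher and 25 a lower mean in Tet2-/- cells, with a median of -0.01, and 0 passed an adjusted p of 0.05. Many of the 49, including all 7 terminal component genes, lay below the array medians, which limits what this even split can show. At an unadjusted p under 0.05, 1 of 49 was higher and 2 were lower, beside 1.71% and 1.90% of all probe sets. The groups did not overlap for Scarf1, higher in Tet2-/- cells, nor for C6 and Itgax, lower there, which makes 1 and 2 genes of 49 beside 3.33% and 4.07% of all probe sets.

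**Figure D3:**
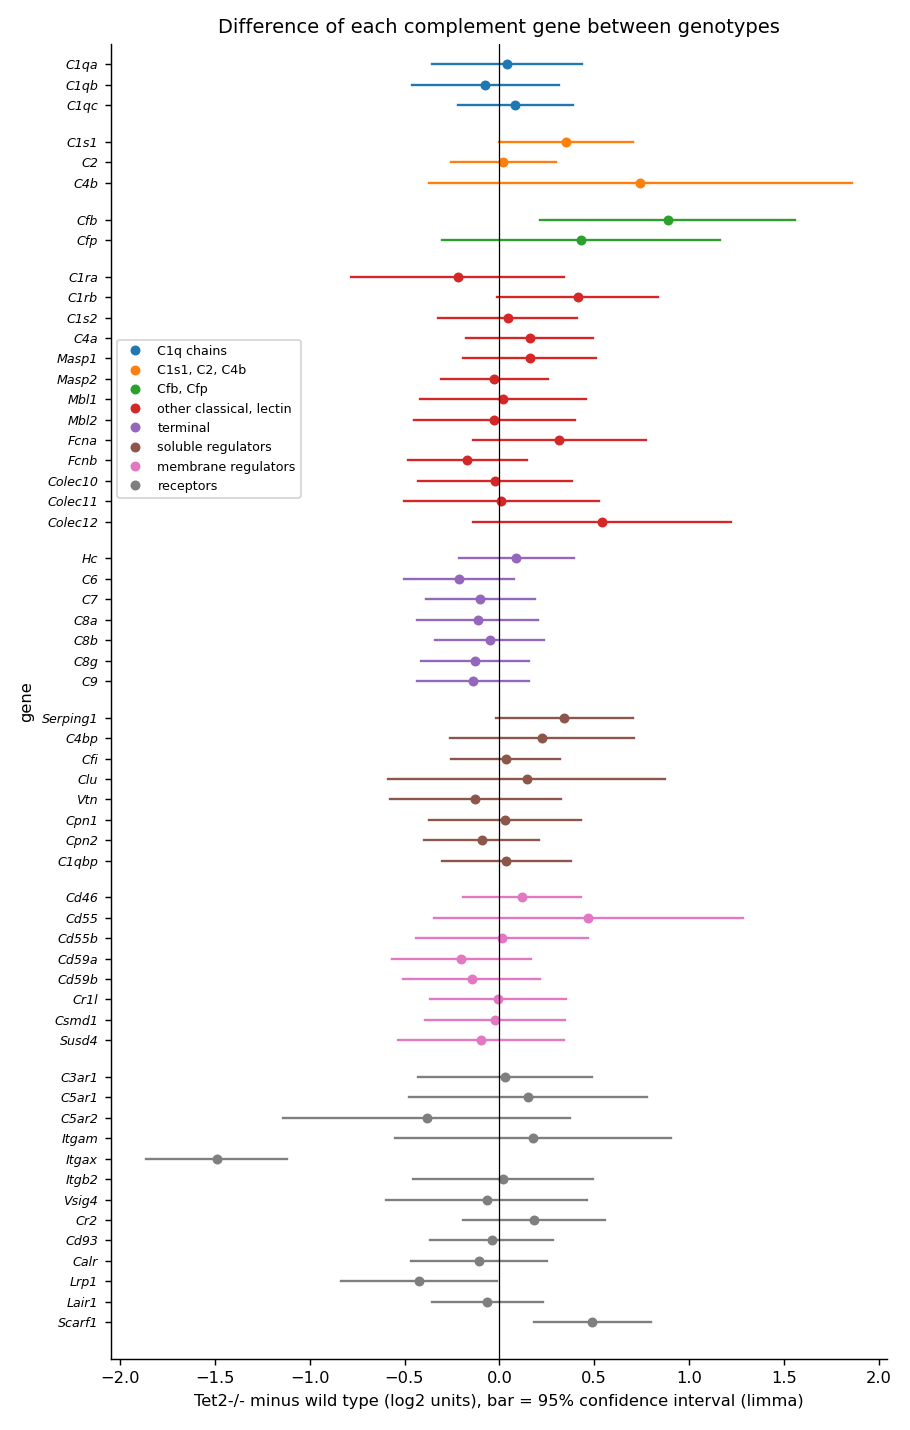
Difference between genotypes (Tet2-/- minus wild type, log2 units) for each measured complement gene, with 95% confidence intervals from limma, coloured by role. The C1q chains sit near 0, C4b and Cfb reach 0.74 and 0.89, and the receptor gene Itgax lies lowest at -1.49.

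Among these 49 other complement genes, all those called at an unadjusted p under 0.05 were receptors. Itgax, the alpha chain of complement receptor CR4, was at 7.05, 6.80 and 7.11 in wild-type and at 5.68, 5.22 and 5.59 in Tet2-/- cells, a difference of -1.49 (limma adjusted p = 0.197). Lrp1, a scavenger receptor reported to take part in C1q-dependent uptake, differed by -0.42. Scarf1, a scavenger receptor that binds C1q on dying cells, was at 3.17, 3.09 and 3.32 in wild-type and at 3.81, 3.69 and 3.55 in Tet2-/- cells, a difference of 0.49. Of the 13 receptor genes, 6 had a higher and 7 a lower mean, and replicate 6 was the lowest Tet2-/- sample for 11. Chosen after their values were seen, the anaphylatoxin receptors C3ar1, C5ar1 and C5ar2 differed by 0.03, 0.15 and -0.38, and Itgam and Itgb2, the chains of CR3, by 0.18 and 0.02.

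Other initiators of the classical and lectin pathways, 13 of 13 measured, had 8 higher and 5 lower means. Colec12, a membrane collectin, differed by 0.54 and Fcna, a ficolin made by macrophages, by 0.32. C1rb, a copy of the C1r protease gene beside C1s1, differed by 0.41 and its near copy C1ra by -0.22. The 7 terminal component genes, which encode C5 and the proteins of the membrane attack complex, were all dim, averaging 1.85 to 1.90 in wild-type and 1.72 to 1.82 in Tet2-/- samples. The largest of their differences were C6 at -0.21, C9 at -0.14 and C8g at -0.13, all below the array medians.

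Regulators overlapped between the genotypes. Among soluble regulators, 6 of 8 had higher means, with Serping1, the C1 inhibitor, at 0.34, C4bp, which binds C4b, at 0.22 and the chaperone clusterin (Clu) at 0.14. Among membrane regulators, 3 of 8 had higher means. Cd55, which speeds the decay of convertases, differed by 0.47, and Cd59a and Cd59b, which block the membrane attack complex, by -0.20 and -0.15. None of these regulators passed an unadjusted p under 0.05.

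Genes whose profile over the 6 arrays was closest to each side were found by the root mean square distance between values relative to the 6-array mean, among 23177 named probe sets outside the set. Closest to the C1q mean were Ube2j1, a ubiquitin-conjugating enzyme, at a distance of 0.0207 log2 units, Cpsf1 at 0.0258, Leng8 at 0.0307, Pola1 at 0.0367 and Map3k4 at 0.0429. Closest to the Cfb and Cfp mean were Smad3, a signal transducer of TGF-beta, at 0.0513, the interferon-inducible Ifi203 at 0.0569, Megf9 at 0.0858, Plxna4 at 0.0961 and Calcrl at 0.103. The distances rest on 6 arrays and are a description. Smad3 was at 3.78, 3.55 and 3.61 in wild-type and at 4.25, 4.91 and 3.57 in Tet2-/- replicates 4, 5 and 6, and replicate 6 lay among the wild-type values.

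The size of the alternative pathway and C4b differences turned on which Tet2-/- samples were counted. Without replicate 6, C4b, Cfb and Cfp differed by 1.37, 1.14 and 0.87 (limma adjusted p = 0.205, 0.249 and 0.101). Without replicate 5 they differed by 0.31, 0.49 and 0.20. Over these settings C1qa and C1qb stayed between -0.18 and 0.20 and changed sign, so no direction can be given for them.

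**Figure D4:**
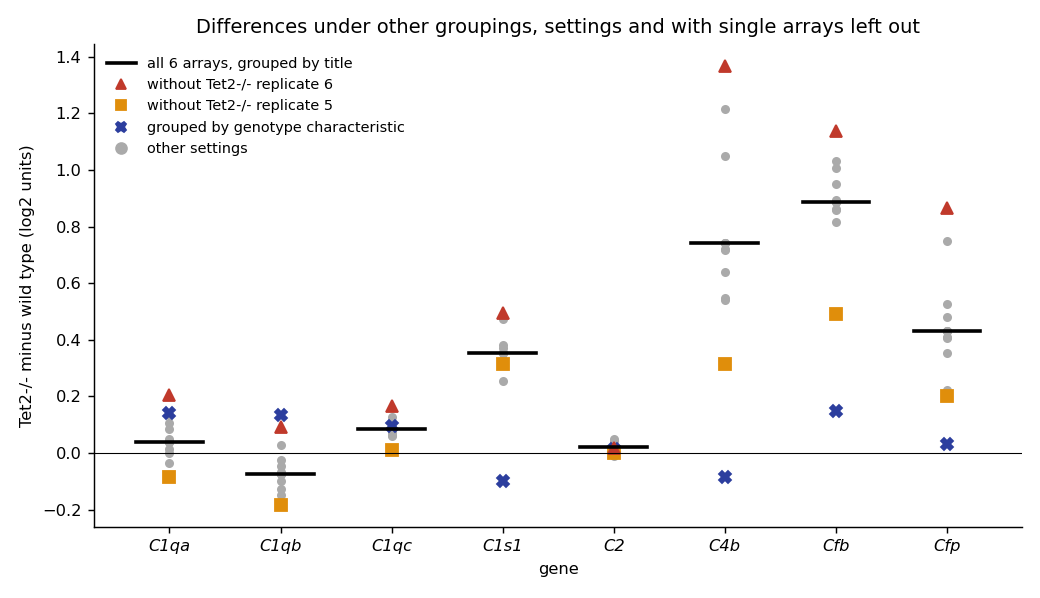
Difference of each gene (Tet2-/- minus wild type, log2 units) with all 6 arrays (black bars), without Tet2-/- replicate 6 or 5, under grouping by the genotype characteristic, and under the other settings (grey). Cfb stays above 0 at 0.15 to 1.14, while C4b and C1s1 fall below 0 only when grouped by the characteristic.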

How the data were processed

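Whole-transcript Affymetrix arrays measured RNA in 3 samples per genotype. Per the submitters' processing notes, the authors used RMA and affy 1.36.1, and the deposited table holds log2 expression. The RMA method subtracts background, equalises the arrays' quantiles and combines the probes of a set. The log2 scale was read from the values (0.19 to 12.2), and joint normalization of the arrays is not stated. Array scanner files were not used, so background per probe set was not checked.

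Probe sets took names from the platform annotation, which gave 1 gene for 23185 of 25206, several for 0 and none for 2021. C3 and some other listed genes had no named probe set and are not reported here. The design had planned C3, Cfb and Cfp as the alternative pathway, and Cfb and Cfp were used. limma 3.58.1 in R 4.3.3 (lmFit, eBayes, two-sided) was fitted over all probe sets with Benjamini-Hochberg adjustment. The scripts were tested on simulated data. At most 2.42% of values were equal in any pair of arrays. The number of arrays limits the precision.

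The members, gene lists, motifs and settings were chosen with earlier results of these data known. The rule for named genes took all members, Tet2, other complement genes with an unadjusted p under 0.05 or among the 3 largest differences of their role, the 2 largest of each marker list and the 5 closest profiles. The motifs printed are those kept, after the windows had been searched, from a longer list. Alternatives were the grouping by characteristic, a replicate block, trend and robust variances, array weights, median centring, further quantile normalization, the brighter probe sets and leaving out each sample.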

Additional observations from a re-analysis of the deposited data

How the results depend on the processing

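The number of genes past an adjusted p of 0.05 was 0 of 8 under every setting run, and 0 at 0.1. The number past an unadjusted p of 0.05, 2 with all arrays, was 0 with the genotype characteristic, 1 with trend and robust variances, with median-centred arrays, with further quantile normalization and with the brighter probe sets only, 4 with array weights, and 0 to 4 when single samples were left out (4 when that was Tet2-/- replicate 6, 0 when it was wild-type replicate 6). The share of all probe sets past that p moved too, from 3.61% with all arrays to 8.28% with array weights, 9.88% without Tet2-/- replicate 6 and 1.64% with the characteristic. It was 3.67% with trend and robust variances and with median-centred arrays, and 3.975% with further quantile normalization. Among the brighter probe sets only it was 3.66%. Without wild-type replicate 6 it was 2.80%, and leaving out single samples gave 2.51% (wild-type replicate 5) to 9.88%. Grouping by the characteristic moved the alternative pathway difference from 0.66 to 0.088 and the C1q minus alternative difference from -0.64 to 0.035, and it turned C1s1 to -0.10, C4b to -0.083 and C1qb to 0.13. C1qb also turned to 0.028 with array weights, and ran from -0.18 to 0.092 when single samples were left out (positive when that was Tet2-/- replicate 6). C1qa ran from -0.085 (Tet2-/- replicate 5 left out) to 0.205 and was -0.035 with wild-type replicate 5 left out. C2 ran from -0.012 (wild-type replicate 5 left out) to 0.048, and turned to -0.005 with median-centred arrays. The cause was not tested, apart from the smaller number of samples where one was left out. With the replicate number as a block, 3 of the 8 genes passed an unadjusted p of 0.05, beside 3.56% of all probe sets, and 0 an adjusted one. Same-numbered samples deviated from their group means with correlations of 0.15, -0.22 and 0.11 for replicates 4, 5 and 6, so the numbers were not taken to pair the samples. The planned setting with Cfd was not run, and the one without C3 is the setting reported. C2 has no value among the brighter probe sets. C2 lay below every array median and C1s1 close to the medians, which limits what their differences can show.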
